A study of Rattus norvegicus with 179 samples.

Results

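The genes described here were those whose RNA was higher in the prefrontal cortex than in the hippocampus of aged rats. They were chosen by their regional levels. Counts were scaled by the total of their library (CPM), and a gene was taken when its median over the 36 prefrontal cortex libraries was at least 10 CPM and at least 3 times the median over the 36 hippocampus libraries plus 0.5 CPM. This rule gave 46 of the 32545 genes in the table. The values that chose them were the 2 regional medians, so the gap between regions is a description, and no test of it is given. The mirror rule gave 97 genes higher in the hippocampus, which are used below only to show where a library or a comparison differed for both sets.

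Gene expression was measured by sequencing of poly-A RNA in 36 male F344BN rats that were 24 mo old when obtained, in both brain regions, the liver, the colon and a hindlimb muscle, the tibialis anterior (TA). The LPAEx group received a Lactobacillus paracasei strain that was engineered so that it made the peptide Ang (1–7), and ran on a treadmill, and LPASed received the same bacterium without running. LPEx and LPSed received the unmodified L. paracasei with and without running, and CONEx and CONSed received buffer with and without running. Over 12 wk, gavage was given 3 times/wk and the belt moved at 12 cm/s on 5 days of each week, whereas sedentary rats were placed on a treadmill that was switched off. Each group had 6 libraries per tissue (5 in the liver of LPEx), and total counts ranged from 13211009 to 17944320 in the prefrontal cortex and from 13203828 to 27563733 over all 179 libraries. All animals were old males, so no young or female rat stands beside them, and no source used here says that a number shared by rats of different groups marks a shared litter or day.

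The prefrontal cortex is a layered neocortex whose pyramidal neurons connect with other cortical areas, the striatum, the thalamus and the brain stem, and it is known for its part in working memory and the control of behavior. The hippocampus is an older, simpler layered cortex with the dentate gyrus and the fields of Ammon's horn, and it is known for its part in spatial and episodic memory. Both regions hold excitatory and inhibitory neurons, astrocytes, oligodendrocytes, microglia and vessels, so genes that differ between them are often those of region-specific neurons, whereas genes of common cell types are shared. The deposited table gave Ensembl IDs without symbols, and 0 of the 46 IDs could be paired with a name. The genes are therefore given by ID, no role is assigned to any of them, lists of cortical layer, interneuron, glial and other cell type markers could not be applied, and no sequence is printed. The labelled regions were therefore checked with the regional genes and with the correlation of each library to the tissue medians over all genes, and not with cell type markers.

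Medians in the prefrontal cortex ranged from 10.6 to 1178 CPM among the 46 genes. The ratio of the prefrontal cortex median to the hippocampus median plus 0.5 CPM ranged from 3.00 to 12.5 with a median of 3.78. ENSRNOG00000030111 had the highest ratio, 12.5, with medians of 11.0 CPM in the prefrontal cortex and 0.379 CPM in the hippocampus. It was followed by ENSRNOG00000006146 with a ratio of 11.2 (31.4 CPM in the prefrontal cortex and 2.30 CPM in the hippocampus). Of the others, ENSRNOG00000060087 had a ratio of 7.27, ENSRNOG00000026953 of 6.98 and ENSRNOG00000048187 of 6.95. The hippocampus median of ENSRNOG00000030111 was under 1 CPM, so this ratio rests on few counts in that region.

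The genes with the most counts had smaller ratios. CPM is not divided by transcript length, so levels are compared here between tissues and not between genes. ENSRNOG00000016322 had medians of 1178 CPM in the prefrontal cortex and 314.9 CPM in the hippocampus. ENSRNOG00000029165 had 472.7 CPM in the prefrontal cortex and 133.3 CPM in the hippocampus. ENSRNOG00000033134 had 391.3 CPM in the prefrontal cortex and 105.1 CPM in the hippocampus, and ENSRNOG00000002773 had 285.6 CPM in the prefrontal cortex and 70.2 CPM in the hippocampus. At the 3-fold limit, ENSRNOG00000010694 (ratio 3.00), ENSRNOG00000023389 (3.02) and ENSRNOG00000024904 (3.06) were just inside, whereas ENSRNOG00000014010 (2.98), ENSRNOG00000005286 (2.98) and ENSRNOG00000018808 (2.97) were just outside. At the 10 CPM limit, ENSRNOG00000024904 (10.6 CPM in the prefrontal cortex) was just inside and ENSRNOG00000018606 (8.70 CPM) was just outside.

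Outside the brain, which the rule did not use, the 46 genes were mostly low, and more often so than other genes of the prefrontal cortex. Colon, liver and TA muscle medians were all under 1 CPM in 14 of the 46 genes (30.4%), compared with 459 of the 9212 genes (4.98%) with a prefrontal cortex median of at least 10 CPM. By tissue, 20 of the 46 were under 1 CPM in the colon (43.5%, and 6.36% of the 9212), 28 in the liver (60.9%, and 14.3%), and likewise 26 in the TA muscle (56.5%, and 13.4%). ENSRNOG00000004805 was one of the 14, with medians of 187 CPM in the prefrontal cortex, 41.1 CPM in the hippocampus and at most 0.114 CPM in the other 3 tissues. ENSRNOG00000005457 had 182 CPM in the prefrontal cortex, 54.3 CPM in the hippocampus and at most 0.0254 CPM elsewhere. These shares are descriptions, since genes of a tissue are not independent of each other.

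For 9 of the 46 genes (19.6%) a tissue outside the brain matched or exceeded the prefrontal cortex, compared with 4981 of the 9212 (54.1%). The muscle was the high tissue for a pair of them. ENSRNOG00000015155 had a median of 53.4 CPM in the prefrontal cortex, 14.2 CPM in the hippocampus and 10536 CPM in the TA muscle, with 1.04 CPM in the liver and 1.22 CPM in the colon. ENSRNOG00000006146 had 31.4 CPM in the prefrontal cortex and 578.5 CPM in the muscle, and was near 0 in the colon and liver. Further genes came close to this, since ENSRNOG00000033134 had 391.3 CPM in the prefrontal cortex and 350.1 CPM in the muscle, and ENSRNOG00000027230 had 76.6 CPM in the prefrontal cortex and 70.7 CPM in the muscle. The colon was the high tissue for 6 genes, with ENSRNOG00000002361 at 18.4 CPM in the prefrontal cortex and 251.9 CPM in the colon, and ENSRNOG00000010188 at 55.9 CPM in the prefrontal cortex and 181.7 CPM in the colon. The liver was the high tissue for ENSRNOG00000060087, at 19.8 CPM in the prefrontal cortex and 73.8 CPM in the liver. Among the 35 liver libraries behind the liver medians, LPEx rat 4 was nearest to the muscle median (r = 0.965 across genes) and LPAEx rat 7 to the colon median (r = 0.937).

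**Figure D1:**
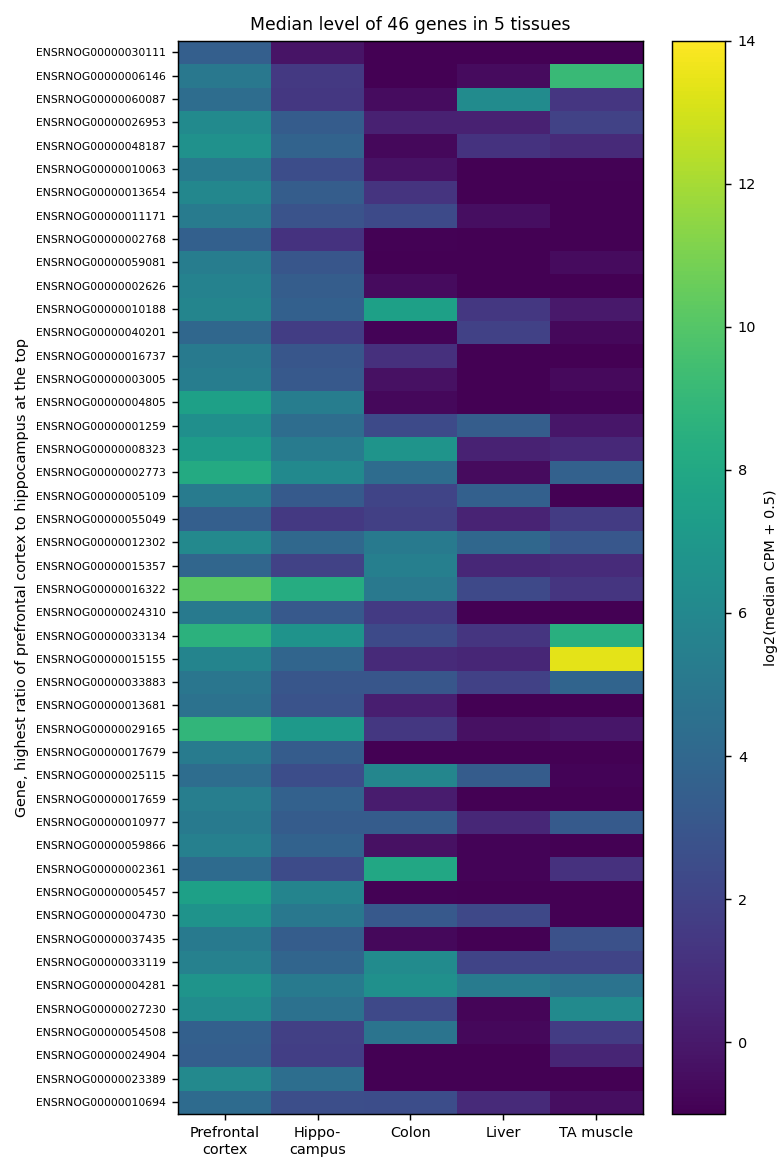
Median level of each of the 46 genes (rows, highest ratio of prefrontal cortex to hippocampus at the top) in 5 tissues (columns), as color on a scale of log2(median CPM + 0.5). Most rows are dark in colon, liver and TA muscle, and 9 rows have a tissue outside the brain that is as bright as the prefrontal cortex or brighter, with ENSRNOG00000015155 in muscle the brightest cell at 10536 CPM.

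Not every library followed its label. For each brain library, the mean log2(CPM + 0.5) of the 46 genes was placed between the median of the hippocampus libraries, set to 0, and that of the prefrontal cortex libraries, set to 1, and the 97 hippocampus genes were placed on the reverse scale. The prefrontal cortex library of LPAEx rat 9 lay at −0.253 for the 46 genes and at 1.11 for the 97 genes, that is among the hippocampus libraries for both sets. In it, 46 of the 46 genes were below the median of 34 other prefrontal cortex libraries, CONSed rat 7 being left out. Of the 46 genes, 35 were below every one of the 34, and the median log2 difference of the 46 was −2.70. The share of all genes outside the other libraries was not computed. Such counts, here and below, are therefore not read as particular to the 46 genes. The prefrontal cortex library of CONSed rat 7 lay between the regions, at 0.412 for the 46 genes and 0.599 for the 97 genes. In it, 20 of the 46 genes were below all of the same 34 libraries, which leave out LPAEx rat 9 too. Over all genes, LPAEx rat 9 was nearer to the hippocampus median (r = 0.989) than to the prefrontal cortex median (r = 0.970), and CONSed rat 7 was about as near to the hippocampus (r = 0.973) as to the prefrontal cortex (r = 0.971).

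The hippocampus held 3 libraries that went the other way. LPSed rat 7 lay at 1.08 for the 46 genes and at 0.0101 for the 97 genes. In it, 35 of the 46 genes were above all 33 hippocampus libraries other than these 3. Over all genes it was nearer to the prefrontal cortex median (r = 0.990) than to the hippocampus median (r = 0.974). CONSed rat 3 lay at 0.624 and 0.538, and LPSed rat 13 at 0.607 and 0.667, and both were nearest to the hippocampus median over all genes. These 5 libraries were named with the rule and are called the libraries that stand apart. The other prefrontal cortex libraries ranged from 0.550 to 1.14 for the 46 genes and from −0.134 to 0.242 for the 97 genes, and the other hippocampus libraries from −0.267 to 0.246 for the 46 genes and from 0.519 to 1.14 for the 97 genes. On the scale of the 97 genes, the hippocampus libraries of LPAEx rat 4 (0.519) and LPEx rat 10 (0.522) thus lay below those of CONSed rat 3 and LPSed rat 13, although they were not among the libraries that stand apart. The lowest of the other prefrontal cortex libraries was LPAEx rat 7, at 0.550. Whether tissue of the other region, exchanged samples or another difference lies behind these positions was not tested. In tissue RNA, fewer cells of a type and less RNA per cell cannot be told apart.

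**Figure D2:**
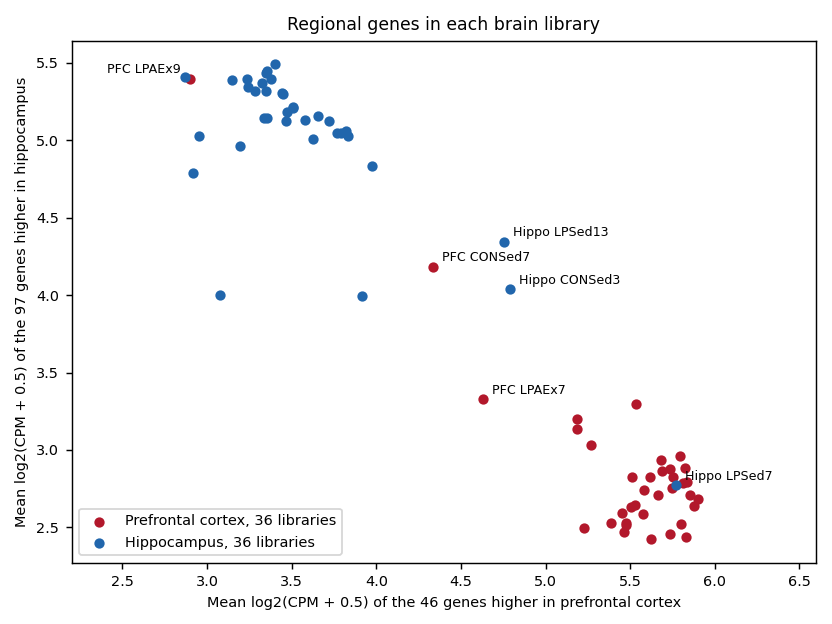
Mean log2(CPM + 0.5) of the 46 genes (horizontal axis) and of the 97 genes higher in hippocampus (vertical axis) in 36 prefrontal cortex and 36 hippocampus libraries, 1 point per library. PFC LPAEx9 lies among the hippocampus points, Hippo LPSed7 among the prefrontal cortex points, and PFC CONSed7, Hippo CONSed3 and Hippo LPSed13 between them, with PFC LPAEx7 at the edge of the prefrontal cortex points.

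Over all libraries, 0 of the 46 genes had a prefrontal cortex range that lay wholly above the hippocampus range, and 0 of the 9212 genes did (0%). This held for 9 of the 46 without the libraries that stand apart (13 of the 9212, 0.141%), and for 18 of the 46 without LPAEx rat 7 as well (29 of the 9212, 0.315%). Since the genes were chosen by the gap between regions, nothing is read from these counts. ENSRNOG00000004730 was one of the 9, with 54.3 to 432 CPM in 34 prefrontal cortex libraries and at most 51.8 CPM in 33 hippocampus libraries. For the other genes at least 1 hippocampus library reached the lowest prefrontal cortex library. LPAEx rat 4 and LPEx rat 10, which stayed among the 33, were such libraries for some genes. ENSRNOG00000013654 had 84.5 CPM in the hippocampus of LPAEx rat 4, and 31.6 CPM in the lowest of the 34 prefrontal cortex libraries. ENSRNOG00000008323 had 161.7 CPM in the hippocampus of LPEx rat 10, and 105.2 CPM in that lowest library. For how many genes only these libraries overlapped was not counted. Within the prefrontal cortex, the SD of log2(CPM + 0.5) over the 34 libraries had a median of 0.508 among the genes and ranged from 0.272 to 1.18.

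Co-variation within the prefrontal cortex depended on these libraries. Over all 36 libraries the median Pearson correlation of log2(CPM + 0.5) among the 1035 pairs of the 46 genes was 0.60, compared with 0.088 among the 9212 genes, and 64.4% of the pairs were above 0.5 (9.92% of the pairs of the 9212 genes). The Spearman correlation had a median of 0.304. Without LPAEx rat 9 and CONSed rat 7 the median Pearson correlation was 0.209, with 29.5% of the pairs above 0.5 and 35.5% below 0, compared with 0.088 and 10.9% above 0.5 among the 9212 genes. With group means subtracted and the same libraries left out, the median was 0.213. All correlations are descriptions, with points that share their library, its depth and its tissue piece, and the genes are not independent of each other.

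The lower median was that of pairs of both signs, many of them weak, with 29.5% above 0.5 and 35.5% below 0. The share below 0 was not computed for the 9212 genes. Over the 34 libraries, correlations ranged from −0.80 to 0.94. Average linkage of these correlations into 4 blocks, a number chosen after the values were seen, gave block A with 30 genes, block B with 9, block C with 6 and a last gene, ENSRNOG00000008323, by itself. The median correlation was 0.59 within block A, 0.43 within block B, 0.36 within block C and −0.27 between blocks A and B. ENSRNOG00000048187 and ENSRNOG00000029165 of block A had the closest pattern (r = 0.94, n = 34), followed by ENSRNOG00000006146 and ENSRNOG00000029165 (r = 0.94). The most opposed pair was ENSRNOG00000013681 of block A and ENSRNOG00000004730 of block B (r = −0.80).

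**Figure D3:**
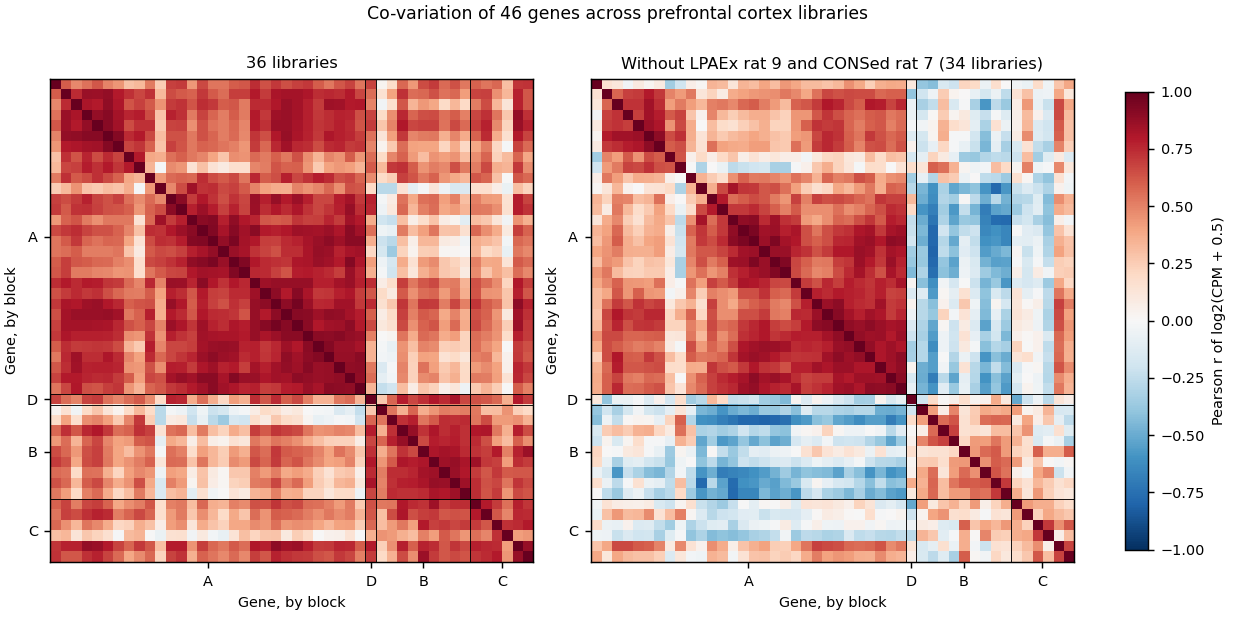
Pearson correlation of log2(CPM + 0.5) between the 46 genes over all 36 prefrontal cortex libraries (left) and over 34 libraries without LPAEx rat 9 and CONSed rat 7 (right), with genes in the same order and lines between blocks A, D (a single gene), B and C. The panel of all libraries is mostly red, with a median of 0.60, whereas the panel of 34 libraries has blue fields between blocks A and B, with a median of −0.27 there.

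The blocks lay on opposite sides of the median in LPAEx rat 7, a library that was among the 34 used to form them. In this library 18 of the 30 genes of block A were lower than in any of the 33 remaining prefrontal cortex libraries, with a median log2 difference of −1.57 from their median. All 9 genes of block B were above that median, by a median of 1.17 on the log2 scale, and 6 of them were higher than in any other library. ENSRNOG00000010188 of block A had 1.16 CPM in LPAEx rat 7, compared with a lowest, median and highest value of 19.5, 58.9 and 99.6 CPM in the 33 others. ENSRNOG00000055049 of block B had 82.4 CPM in LPAEx rat 7, compared with 2.61, 12.0 and 62.9 CPM in the 33 others. Without LPAEx rat 7 as well, the median correlation was 0.44 within block A, 0.34 within block B and −0.07 between them, and the most negative pair of all 46 genes was −0.69.

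The blocks were formed on the prefrontal cortex correlations, so their values there are high by construction and cannot be set against those of the hippocampus. Over 33 hippocampus libraries the median correlation was 0.144 within block A, 0.0177 within block B and 0.077 between them, and over the 46 genes it was 0.124 (0.012 among the 9212 genes), beside 0.209 over the 46 genes in the prefrontal cortex. Some pairs stayed close, such as ENSRNOG00000016322 and ENSRNOG00000029165 with r = 0.90 in 34 prefrontal cortex libraries and 0.85 in 33 hippocampus libraries. The levels of the 2 regions were also compared in the same rats. In the 31 rats with neither region among the libraries that stand apart, the correlation of a gene's prefrontal cortex and hippocampus levels had a median of 0.0024 over the 46 genes (range −0.371 to 0.469), and 0.0165 over the 9212 genes.

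The first group comparison asked whether exercise, averaged over the 3 treatments, was accompanied by a difference in the prefrontal cortex. Of the 46 genes, all tested, 3 fell and 0 rose at an FDR under 0.10 (6.52%), compared with 1694 of the 15766 genes tested (10.7%), 814 of them higher (5.16%) and 880 lower (5.58%). The share among the 46 was thus not above that of all genes. The 46 had a median log2 fold change of −0.077 with 34 below 0, whereas all genes had a median of 0.0148. This median depended on single libraries, since it ranged from −0.139 without LPAEx rat 4 to 0.0041 without LPAEx rat 9, where 22 of the 46 were below 0. The 97 hippocampus genes, 93 of which were tested, had a median of 0.184 with 7 higher and 0 lower at this FDR. Without the libraries that stand apart the medians were −0.034 for the 46 genes and 0.0095 for the hippocampus genes.

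Of the pair of genes with muscle as their high tissue, ENSRNOG00000006146 was not called for exercise. The other, ENSRNOG00000015155, fell with exercise. Its lowest, median and highest levels were 3.16, 44.9 and 76.0 CPM in the 18 exercised rats, compared with 33.9, 65.0 and 108 CPM in the 18 sedentary rats. The groups overlapped, and the lowest values were those of LPAEx, where rat 7 had 3.16 CPM and the mean was 25.1 ± 19.1 CPM (SD, n = 6). The log2 fold change was −0.80 (SE 0.219, FDR = 0.0240 by edgeR), and it was −0.69 (FDR = 0.0230) without LPAEx rats 7 and 9 and CONSed rat 7. Its mean was 56.1 ± 14.5 CPM in LPASed, and its means were 44.5 ± 10.6 CPM in LPEx against 70.2 ± 10.5 CPM in LPSed, and 56.8 ± 17.5 CPM in CONEx against 64.4 ± 25.9 CPM in CONSed (SD, n = 6 each). Beside it, 18 other genes had muscle medians of at least 5000 CPM and 10 times those of colon and liver. Their prefrontal cortex medians were 0 to 2153 CPM, with a median of 2.88 CPM. These are medians over all 36 libraries, and genes that brain expresses were not removed. They therefore cannot measure muscle RNA in exercised against sedentary rats. The part of other tissue in this difference was not tested.

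ENSRNOG00000016322 also fell with exercise. Its lowest, median and highest levels were 200.02, 1116 and 1594 CPM in exercised rats, compared with 835.7, 1329 and 2077 CPM in sedentary rats. The ranges overlapped, with the lowest value in LPAEx rat 7 and the lowest sedentary value in CONSed rat 7. The log2 fold change was −0.55 (SE 0.163, FDR = 0.0374 by edgeR), and without the 3 libraries named above it was −0.43 (FDR = 0.0210). In both ENSRNOG00000015155 and ENSRNOG00000016322 the call was kept when any single library was left out, with FDRs of at most 0.0446 and 0.0633.

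The third gene, ENSRNOG00000026953, was named after its values were seen, as the last of the 3 calls. Its lowest, median and highest levels were 3.48, 69.1 and 83.9 CPM in exercised rats, compared with 45.4, 78.3 and 183 CPM in sedentary rats. By treatment, the means were 42.7 ± 36.2 CPM in LPAEx against 110 ± 56.1 CPM in LPASed, 76.2 ± 7.04 CPM in LPEx against 65.3 ± 12.7 CPM in LPSed, and 54.0 ± 16.2 CPM in CONEx against 76.4 ± 15.0 CPM in CONSed (SD, n = 6 each). The log2 fold change was −0.68 (SE 0.249, FDR = 0.0953 by edgeR). It lost the call in 24 of the 36 fits that left out a single library, with FDRs from 0.0634 to 0.147 over the 36 fits and the highest without LPASed rat 4.

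A further gene, ENSRNOG00000024310 of block B, was called when the libraries that stand apart were left out, and it rose with exercise. In that fit 4 of the 46 genes were called (8.7%), compared with 1711 of 15914 genes (10.8%). Its lowest, median and highest levels were 25.5, 47.4 and 122 CPM in 17 exercised rats, compared with 20.5, 29.4 and 49.3 CPM in 17 sedentary rats. The log2 fold change was 0.52 (SE 0.139, FDR = 0.0232 by edgeR), whereas over all 36 libraries, which include 1.42 CPM in LPAEx rat 9, it was 0.47 (FDR = 0.217). Its highest value was that of LPAEx rat 7, and with this library left out too the log2 fold change was 0.41 (FDR = 0.0535). Other library measures differed along with exercise: the 10 highest genes of a library took a median of 12.2% of the counts in exercised rats and 15.8% in sedentary rats, and a median of 17258 genes was detected in exercised rats against 16180.5 in sedentary rats. Their part in these differences was not tested.

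**Figure D4:**
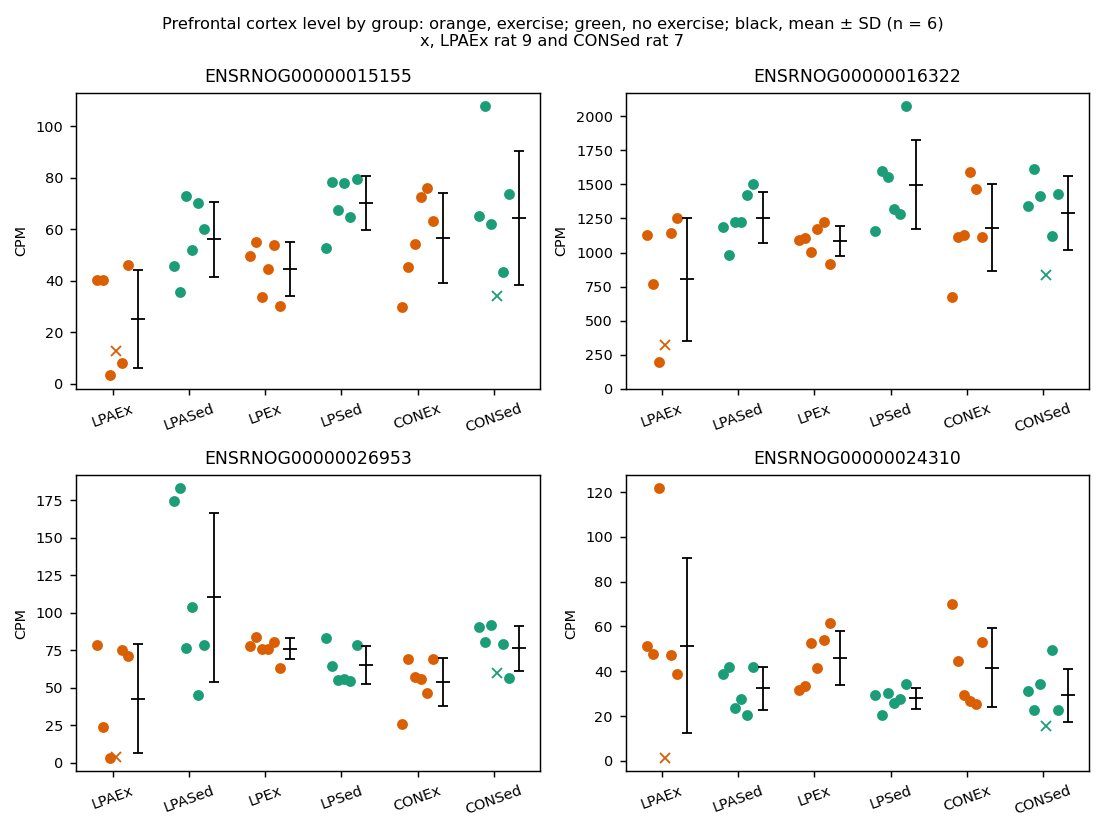
CPM of ENSRNOG00000015155, ENSRNOG00000016322, ENSRNOG00000026953 and ENSRNOG00000024310 in the prefrontal cortex by group, 1 point per rat, with the mean ± SD (n = 6) in black and crosses for LPAEx rat 9 and CONSed rat 7. LPAEx has the lowest points of the first 3 genes, down to 3.16, 200.02 and 3.48 CPM, and both the lowest and the highest point of ENSRNOG00000024310, 1.42 and 122 CPM.

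The probiotics were compared next. For LPA versus LP in the prefrontal cortex, averaged over activity, edgeR called 0 of the 46 genes and 0 of the 15766 tested (0%), with 3 and 786 at an unadjusted p under 0.05. The median log2 fold change of the 46 was −0.271 with 40 below 0, and that of the hippocampus genes was 0.509 with 90 of 93 above 0. The medians were −0.157 and 0.0934 without the libraries that stand apart. For LP versus CON, 0 of the 46 and 0 of the 15766 (0%) were called, with 1 and 367 at an unadjusted p under 0.05, and the median of the 46 was 0.127 with all libraries and 0.0726 without those that stand apart. DESeq2 also called 0 of the 46 genes in both comparisons. Thus the medians of both sets were nearer to 0 without LPAEx rat 9 and CONSed rat 7.

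The study set LPAEx against every other group, and all 5 such comparisons share the LPAEx libraries. Against LPASed, 3 of the 46 genes fell (6.52%), compared with 1276 of 15766 genes (8.09%), 4.66% lower and 3.44% higher. ENSRNOG00000026953 had a log2 fold change of −1.56 (SE 0.439, FDR = 0.0414 by edgeR), ENSRNOG00000015155 of −1.35 (FDR = 0.0428) and ENSRNOG00000016322 of −0.85 (FDR = 0.0779). The lowest, median and highest levels of ENSRNOG00000026953 were 3.48, 47.4 and 78.6 CPM in LPAEx and 45.4, 91.2 and 183 CPM in LPASed. In LPAEx rats 6, 7 and 9 were low and the 3 others lay within the range of LPASed. Its call was lost without LPASed rat 4 (FDR = 0.105), and that of ENSRNOG00000016322 in 7 of the 36 fits without a single library, with the highest FDR without LPAEx rat 7 (0.159).

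Without the libraries that stand apart 4 of the 46 genes were called against LPASed (8.7%), compared with 1623 of 15914 genes (10.2%). Of the 4, ENSRNOG00000026953 and ENSRNOG00000015155 fell and ENSRNOG00000024310 and ENSRNOG00000004730 rose. ENSRNOG00000004730 had 119 to 432 CPM in these 5 LPAEx libraries and 73.0 to 110 CPM in the 6 LPASed libraries, which did not overlap, with a log2 fold change of 0.83 (SE 0.297, FDR = 0.0885 by edgeR). Without LPAEx rat 7 as well, 1 of the 46 was called (2.17%), compared with 374 of 16096 genes (2.32%), and it was ENSRNOG00000026953 (log2 fold change −1.01, FDR = 0.0874).

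Against LPSed, 2 of the 46 genes fell (4.35%), compared with 677 of 15766 (4.29%), 3.2% lower and 1.1% higher. ENSRNOG00000015155 had 3.16, 26.5 and 46.05 CPM (lowest, median and highest) in LPAEx and 52.8, 72.8 and 79.4 CPM in LPSed, which did not overlap, with a log2 fold change of −1.67 (SE 0.388, FDR = 0.0212 by edgeR). ENSRNOG00000016322 had 200.02, 947.3 and 1255 CPM in LPAEx and 1161, 1437 and 2077 CPM in LPSed, which overlapped, with a log2 fold change of −1.10 (SE 0.285, FDR = 0.0343 by edgeR). Without the libraries that stand apart ENSRNOG00000024310 was called too (log2 fold change 0.88, FDR = 0.0554), which made 3 of the 46 (6.52%), compared with 697 of 15914 genes (4.38%), and without LPAEx rat 7 as well 0 of the 46 were called by edgeR, with 5 at an unadjusted p under 0.05 and 3 calls among all 16096 genes tested.

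Against CONSed, 1 of the 46 genes fell (2.17%), compared with 391 of 15766 (2.48%), 1.68% lower and 0.799% higher. It was ENSRNOG00000015155, with 3.16 to 46.05 CPM in LPAEx and 33.9 to 108 CPM in CONSed. The log2 fold change was −1.55 (SE 0.387, FDR = 0.0538 by edgeR). Its FDR was 0.118 without the libraries that stand apart. The call was also lost when CONSed rat 3, 4 or 10 or LPAEx rat 7 or 11 was left out alone, with an FDR of at most 0.172 (without LPAEx rat 7). Against the exercised groups edgeR called 0 of the 46 and 0 of 15766 genes (0%) in each comparison. At an unadjusted p under 0.05 there were 8 of the 46 and 1579 genes against CONEx, and 9 of the 46 and 1153 genes against LPEx. DESeq2 called 2 of the 46 against CONEx and 0 against LPEx.

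The median log2 fold change of the 46 genes was below 0 in all 5 LPAEx comparisons, at −0.383 against LPASed, −0.520 against LPEx, −0.353 against LPSed, −0.248 against CONEx and −0.307 against CONSed. Medians over all genes lay between 0.0083 and 0.0463. Without the libraries that stand apart the medians of the 46 were −0.147, −0.300, −0.120, −0.0273 and −0.228 in the same order of comparisons, and without LPAEx rat 7 as well they were −0.0166, −0.129, 0.0034, 0.0921 and −0.0688. The shift of the 46 genes as a set thus became smaller or turned round as these 3 of 36 libraries were left out.

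**Figure D5:**
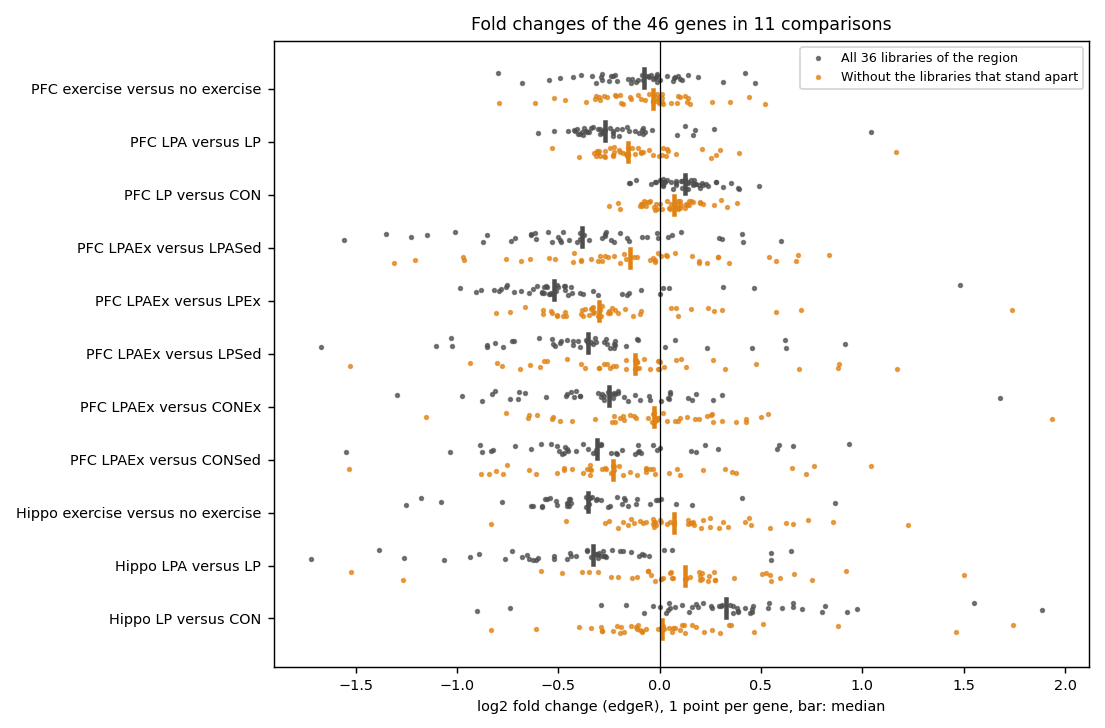
Log2 fold change of each of the 46 genes in 11 comparisons, 1 point per gene with a bar at the median, for all 36 libraries of the region (gray) and without the libraries that stand apart (orange). In the prefrontal cortex the orange medians lie nearer to 0 in every comparison, and in the hippocampus 2 of the 3 medians change sign, with exercise at −0.352 in gray and 0.0705 in orange.

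In the hippocampus, where the 46 genes are low, edgeR called 0 of them and 0 of 16113 genes (0%) for exercise, for LPA versus LP and for LP versus CON. At an unadjusted p under 0.05 there were 10, 12 and 4 of the 46 genes and 627, 428 and 729 of all genes in these comparisons, and DESeq2 called 0 of the 46 in each. The median log2 fold change of the 46 was −0.352 for exercise with all libraries and 0.0705 without the 3 that stand apart, all of which are sedentary. For LPA versus LP it was −0.331 with all libraries and 0.127 without the 3, and for LP versus CON 0.327 and 0.0121. Without the 3 libraries 2, 5 and 2 of the 46 genes were at an unadjusted p under 0.05. The counts over all genes in these fits are not given here, so nothing is read from them. Leaving out LPSed rats 7 and 13 and CONSed rat 3 thus turned the sign of 2 of the 3 medians. The libraries of LPAEx rat 4 and LPEx rat 10 stayed in these fits and in the hippocampus correlations. Their positions for the 46 genes, 0.218 and −0.171, were within the range of the others. Single genes were far from the hippocampus medians, such as ENSRNOG00000033119 with 207.7 and 231.5 CPM. Fits without them and the 3 were not run.

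Finally, the exercise difference was compared between the regions in 1 fit of 72 libraries with rat as a term. EdgeR called 0 of the 46 and 0 of 16791 genes (0%), with 0 and 1622 at an unadjusted p under 0.05. The median difference of the log2 fold changes, prefrontal cortex minus hippocampus, was 0.0528 for the 46 genes, and −0.146 without the 5 libraries that stand apart and the other region of the same rats. For ENSRNOG00000015155 the difference was −0.35 (SE 0.393), and for ENSRNOG00000016322 it was −0.32 (SE 0.255). Without the same libraries these were −0.46 (SE 0.408, FDR = 0.825) and −0.44 (SE 0.253, FDR = 0.667) by edgeR. The fall in the prefrontal cortex was thus not shown to differ from the hippocampus. There, with all libraries, their log2 fold changes were −0.58 (SE 0.288, FDR = 0.979) and −0.36 (SE 0.185, FDR = 0.979) by edgeR. Without the hippocampus libraries that stand apart, medians of ENSRNOG00000015155 were 13.0 CPM in exercised and 14.2 CPM in sedentary rats. Those of ENSRNOG00000016322 were 299.8 and 300.1 CPM, so a fall in the hippocampus is not read from these fold changes.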

How the data were processed

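Gene counts of 179 rat libraries were deposited. The authors used FastQC for quality, cutadapt through Trim Galore for trimming, and STAR for alignment to Rnor_5.0 and for counting, and the deposited values are whole-number counts per gene, not normalized. Tool versions and strand are not given in the sources used here. Groups came from the sample labels.

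The 46 genes, the comparison lists and the libraries that stand apart were chosen with earlier results of these data known. CPM, the regional rule and correlations of log2(CPM + 0.5) were computed in Python 3.11.15 (numpy 2.4.6, pandas 2.3.3). For each region, a model with the 6 groups as its only factor was fitted by edgeR 4.0.16 (R 4.3.3), with filterByExpr, TMM factors and its quasi-likelihood F test. A call had an FDR (Benjamini-Hochberg, over all genes tested) under 0.10. The SE was the fold change divided by the square root of F. The difference of the exercise effect between regions had rat as a fixed term. The fits were also run on simulated counts, whose outcome is not given here. No exchanged or mixed library was simulated, so that run cannot tell how such libraries affect the calls.

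All 46 genes passed the filter in each fit. Genes given in full were those with the highest level or ratio, those nearest the limits, and at most 2 that rose and 2 that fell per comparison, others being named as chosen after their values were seen. Alternatives were DESeq2 1.42.0, relative log expression (RLE) scaling, no filter, a replicate block, other limits of the rule, and leaving out libraries. Fits without LPAEx rat 7, DESeq2 without the libraries that stand apart, and correlations of group-centered values without them were added after the data were seen. Totals of 13203828 to 27563733 counts set the precision. In the fits of 1 region, p-values set a difference between groups against the spread between rats within groups, estimated over all 6 groups.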

Additional observations from a re-analysis of the deposited data

Results flagged for a closer look

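In the prefrontal cortex of CONSed, the mean log2(CPM + 0.5) of the 46 genes was 4.33 in rat 7 and 5.46 to 5.83 in the 5 other rats, and this gap was larger than Dixon's limit for 6 samples allows. It was the only such gap among the 36 sets of 6 values examined, where chance alone gives about 1 in 20 sets. CONSed rat 7 had been named with the rule, and its levels were among those that chose the genes. The gap is thus a description and no independent evidence about this library. The library of LPAEx rat 9 lay lower, at 2.90, with LPAEx rat 7 next at 4.63, a gap that did not pass the limit in its group.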

How the results depend on the processing

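The fold changes of ENSRNOG00000015155, ENSRNOG00000016322, ENSRNOG00000026953 and ENSRNOG00000024310 kept their sign under every alternative run, in the comparisons where each was called. Medians over the 46 genes did change sign, as given above, and for exercise in the prefrontal cortex the median was 0.0041 without LPAEx rat 9 alone. Of the 46 genes, exercise in the prefrontal cortex called 3, and 5 by DESeq2 without the libraries that stand apart (chosen after seeing the data), with 2 to 4 calls when single libraries were left out. LPAEx versus CONSed called 1 gene, 2 by DESeq2 with or without those libraries, and 0 with the replicate block, without the libraries that stand apart, and without LPAEx rat 7 as well. With single libraries left out it ranged from 0 to 2, and was 0 without CONSed rats 3, 4 or 10 or LPAEx rats 7 or 11. LPAEx versus CONEx called 0, 2 by DESeq2, and 1 by DESeq2 without the libraries that stand apart, with 0 to 2 over single libraries. The 2 calls there came without CONEx rat 5. LPAEx versus LPSed called 2, 4 by DESeq2, 5 by DESeq2 without the libraries that stand apart, 1 with the replicate block and 0 without LPAEx rat 7 as well, with 2 to 6 over single libraries (4 without LPAEx rat 4, 6 without LPAEx rat 12). LPAEx versus LPASed called 3, 9 with the replicate block and 1 without LPAEx rat 7 as well, with 1 to 6 over single libraries (1 without LPASed rat 4, 6 without LPAEx rat 12). Counts among the 46 stayed within 1.5 times with RLE scaling and with no filter. Counts over all genes moved too, and are given below for some of these settings only. They are not given for the replicate block against LPASed, or for DESeq2 without the libraries that stand apart. Nothing about the 46 genes in particular is therefore read from these moves. Their cause was not tested.

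Same-numbered rats of different groups had a median correlation of −0.0013 over 49 pairs in the prefrontal cortex and 0.0206 in the hippocampus. In each region 6 of these pairs were above 0.1. Pairs with unlike numbers had medians of 2e-04 and −9e-04. A low median cannot exclude that some numbers mark a shared day or litter. With the replicate block exercise called 2 of the 46 genes, and ENSRNOG00000026953 had an FDR of 0.156 by edgeR.

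Over all genes, calls for exercise numbered 1694, and 1102 with the block, and ranged from 1187 to 2400 with single libraries left out. Those of LPAEx versus CONSed numbered 391, 881 by DESeq2, 154 with no filter, and 1 without the libraries that stand apart, and ranged from 1 to 1057 with single libraries left out. Those of LPAEx versus LPSed numbered 677, 1059 by DESeq2, 73 with the block and 3 without LPAEx rat 7 as well. With single libraries left out they ranged from 272 to 889. Those of LPAEx versus LPASed numbered 1276, and 374 without LPAEx rat 7 as well, and ranged from 501 to 1785 with single libraries left out. DESeq2 called 247 genes for LPAEx versus CONEx and 14 versus LPEx, where edgeR called 0. With single libraries left out edgeR called 0 to 446 versus CONEx and 0 to 9 versus LPEx.

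The rule gave 141 genes with a limit of 2-fold, 9 with 5-fold and between 36 and 63 with other levels, added CPM, means, TMM scaling or fewer libraries, and 32 of the 37 genes chosen by means were among the 46. The median correlation of 0.60 was 0.304 by Spearman, 0.209 without the libraries that stand apart, 0.213 without them and with group means subtracted, and 0.203 without them and LPAEx rat 7. Low counts limit ENSRNOG00000030111 in the hippocampus.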
